A study of Rattus norvegicus with 9 samples.

Results

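The heat shock chaperones described here are 10 genes that handle unfolded protein or control that machinery: Hspa1b, Hspa8, Hsph1, Hsp90aa1, Hsp90ab1, Dnajb1, Hspb1, Hspd1, Hspe1 and Hsf1. The members were chosen by symbol from the 32623 gene rows, and each of the 10 symbols had exactly 1 row. All 10 passed the filter for testing, a mean of at least 1 FPKM (fragments scaled for gene length and library size) over the libraries, which left 13886 genes. Hspa1b was put on the list for its high level after ovariectomy and its low level with treatment, so its values are a description and carry no test. Femora of wild-type SD rats were sequenced as poly(A) RNA in 9 libraries, 3 in each of 3 groups. Control libraries came from normal rats, ovariectomized libraries from rats whose ovaries had been removed, and treated libraries from rats given Desertliving Cistanche herb. The series title places the herb in ovariectomized rats, as a model of osteoporosis after menopause. The labels state neither age, dose or duration nor a sham operation of the controls. They do not say that each library is a separate animal, so errors and p-values measure the spread between libraries, which may be technical.

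Heat shock proteins hold unfolded or newly made proteins, refold them or pass them on for degradation. HSP70 proteins bind exposed stretches of a protein in a cycle driven by ATP; J-domain proteins such as Dnajb1 deliver the substrate and HSP110 proteins such as Hsph1 exchange the nucleotide. HSP90 finishes the folding of kinases and steroid hormone receptors, small heat shock proteins hold aggregating protein without ATP, and the Hspd1 and Hspe1 chaperonin folds protein inside mitochondria. When unfolded protein accumulates, the transcription factor Hsf1 forms trimers and binds heat shock elements, which are inverted repeats of the letters GAA, upstream of inducible chaperone genes. Hspa1b is the classic inducible member, whereas Hspa8 and Hsp90ab1 are made constantly in most cells.

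The upstream sequences of the members are shown because the heat shock element is what Hsf1 targets have in common. RefSeq windows of 300 bases (250 before to 50 after a transcript start, build GRCr8) were matched for 7 of the 10 members, which leaves Hspa1b, Hsp90aa1 and Hsf1. Alternating GAA and TTC units with any 2 bases between them were searched on both strands, as GAANNTTC or TTCNNGAA for 2 units and as GAANNTTCNNGAA or TTCNNGAANNTTC for 3 units, so that a match of 3 units also holds matches of 2. Among 33469 promoters of the same length, 15.9% held 2 units, 0.798% held 3 and 0.0478% held 4. Of the 7 members, 6 held 2 units, 4 held 3 units and 2 held 4 units. The window of Hsp90ab1 held no match. Its gene span in RefSeq reaches upstream of the start this window uses, so sequence around any start further upstream was not searched. A match describes letters and is not a measured binding site.

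The 250 bases before the start of Hspa8 (chr8:50080264-50080513, plus strand) and of Hsph1 (chr12:10427118-10427367, plus strand) are printed from 5′ to 3′, with every match in capitals. They are printed at this length because these were the 2 tested members with an unadjusted p under 0.05 for treated against ovariectomized rats.
Hspa8: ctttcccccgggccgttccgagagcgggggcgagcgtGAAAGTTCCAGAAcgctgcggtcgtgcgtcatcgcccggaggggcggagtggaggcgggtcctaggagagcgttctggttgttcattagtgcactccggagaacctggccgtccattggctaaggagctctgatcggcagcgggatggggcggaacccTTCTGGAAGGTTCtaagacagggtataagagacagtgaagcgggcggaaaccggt
Hsph1: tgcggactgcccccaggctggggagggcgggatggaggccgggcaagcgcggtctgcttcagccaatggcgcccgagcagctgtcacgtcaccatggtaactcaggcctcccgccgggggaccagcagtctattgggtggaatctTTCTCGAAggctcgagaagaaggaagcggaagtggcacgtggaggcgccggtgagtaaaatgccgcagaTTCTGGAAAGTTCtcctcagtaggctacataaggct
Hspa8 had matches of 3 units at -213 to -201 and at -55 to -43 from the start, where -1 is the base just before it. Hsph1 had 3 units at -36 to -24 and 2 units at -105 to -98. The remaining matches are shown with 6 bases on either side, again with the match in capitals. They are 1 stretch of Hspe1 (chr9:64084256-64084285, plus strand), 1 of Dnajb1 (chr19:41431139-41431158, minus strand) and the pair of Hspb1 (chr12:26432417-26432436 and chr12:26432397-26432416, minus strand).
Hspe1: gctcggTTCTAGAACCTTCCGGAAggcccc
Dnajb1: ggggcgGAAGGTTCtggagg
Hspb1: actagaGAAGTTTCcagatg
Hspb1: ggggcaGAACCTTCctggcc
The Hspe1 stretch held 4 units. Hspd1 and Hspe1 are neighbours that point away from each other, and their windows share 211 identical bases, so the same 4 units lie at -65 to -48 of Hspe1 and at -242 to -225 of Hspd1 on the opposite strand. The gene span of Hspd1 in RefSeq reaches past the start its window uses and into the Hspe1 window. A second match of 2 units in Dnajb1 lay after its start, at 18 to 25.

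Each library held 54992823 to 66531156 counts, and counts scaled to library size (CPM) were adjusted by TMM, a correction for library composition. Across all 13886 genes edgeR's quasi-likelihood test with Benjamini-Hochberg adjustment called 0 genes in each of the 3 comparisons at an adjusted p of 0.05. At an unadjusted p under 0.05 edgeR had 462 higher and 239 lower genes for ovariectomized against control, 294 and 428 for treated against ovariectomized and 563 and 660 for treated against control. DESeq2 called 59, 38 and 153 genes in these comparisons. Genes of several cell types were present in the femora: skeletal muscle, erythroid, neutrophil, B lymphocyte, osteoblast, cartilage, adipocyte and endothelial markers all had 5 or more genes tested. In bulk samples, fewer cells of a type and less RNA per cell cannot be told apart. Control replicate 3 stood apart for the chaperones, with the highest level of the 9 libraries for 7 of the 9 members other than Hspa1b. The same library also had the highest cartilage score (1.82) and osteoblast score (0.74) and the lowest adipocyte score (-1.89) of the 9, where a score is the mean log2 CPM of a list relative to the 9 libraries. The part of these cell types in the chaperone values was not tested. Treated replicate 1 had the lowest level for 7 of those 9.

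Per gene length, on the FPKM scale, the cytosolic HSP90 Hsp90ab1 was the most abundant member at 428 ± 26.7 FPKM (SD, n = 9 libraries over all groups). The constitutive HSP70 Hspa8 followed at 265 ± 66.8 FPKM. The mitochondrial co-chaperonin Hspe1 had 110 ± 12.6 FPKM, the stress-responsive HSP90 Hsp90aa1 had 94.5 ± 11.1 FPKM and the chaperonin Hspd1 had 75.4 ± 7.48 FPKM. Each of these was above the next member in 9 of 9 libraries. Dnajb1 at 27.7 ± 3.06 FPKM and Hsph1 at 24.2 ± 6.36 FPKM were neighbours within their spread, with Dnajb1 above Hsph1 in 8 of 9 libraries. Hsf1 at 14.5 ± 1.35 FPKM and Hspb1 at 11.3 ± 6.73 FPKM were also within their spread, and Hspb1 had the largest coefficient of variation of CPM, 58.6%, against 4.95% for Hsp90ab1. The inducible HSP70 Hspa1b was lowest at 4.23 ± 1.97 FPKM, with 336 to 1231 counts per library.

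Hspa1b (chromosome 20, 4877324 to 4879779 in the deposited table, on a genome build that no label or header names) encodes the stress-inducible cytosolic HSP70. It had 9.70, 9.28 and 6.57 CPM in control replicates 1 to 3, 15.1, 17.5 and 19.1 CPM in the ovariectomized libraries and 8.70, 6.89 and 5.31 CPM in the treated libraries. The 3 ovariectomized libraries were the 3 highest and did not overlap with the others, while control and treated libraries overlapped. Groups of ovariectomized above control libraries without overlap were found for 5.02% of all genes, a pattern Hspa1b was chosen for. The log2 fold change was 1.02 ± 0.22 (SE) for ovariectomized against control, a 2.02-fold higher level, and -1.31 ± 0.22 for treated against ovariectomized, 0.404 of the ovariectomized level. With 1 library left out at a time the first was 0.861 to 1.117 and the second -1.498 to -1.145. These ranges come from the libraries Hspa1b was chosen on, so they describe its values and are no check of them. Relative to its constitutive partner Hspa8, Hspa1b was 2.13 to 2.53% of the Hspa8 FPKM in ovariectomized libraries, 0.643 to 1.62% in controls and 0.903 to 1.89% in treated libraries. The near-identical copy Hspa1a was not analysed here, and reads could be shared between the copies, so the level of Hspa1b is uncertain to that extent.

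**Figure D1:**
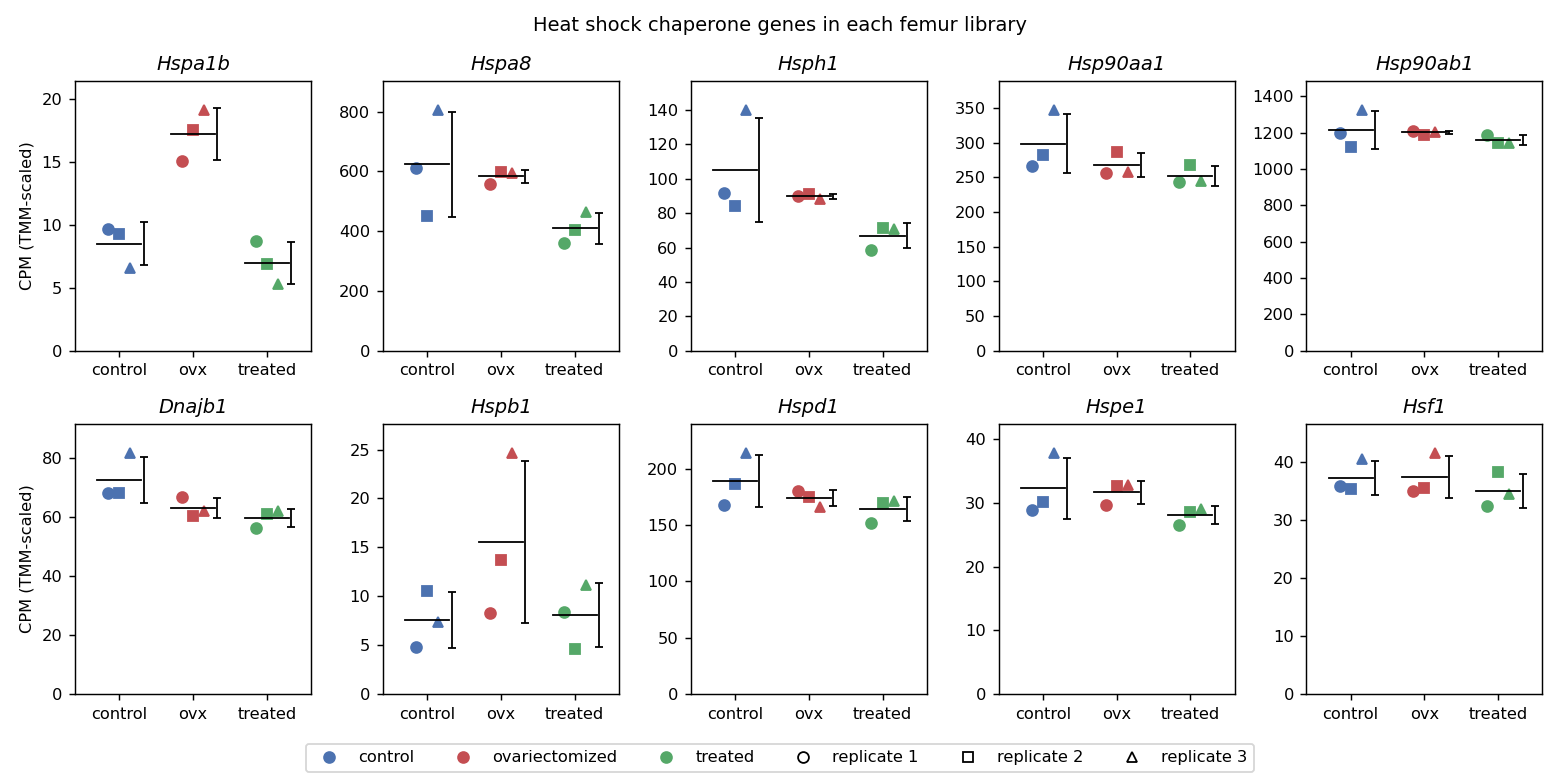
CPM of the 10 heat shock chaperone genes in each library by group (control, ovariectomized written as ovx, treated), each panel on its own linear axis from 0. Marker shape gives the replicate number, the horizontal line is the group mean and the error bar its SD (n = 3). The ovariectomized libraries of Hspa1b, at 15.1 to 19.1 CPM, lie above all others, and control replicate 3 (triangle) is the highest library in 7 panels.

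Hspa8, the constitutive cytosolic HSP70, was lower in treated libraries than in ovariectomized ones. It had 612, 453 and 806 CPM in control replicates 1 to 3, 558, 597 and 596 CPM in ovariectomized libraries and 362, 403 and 464 CPM in treated libraries. Treated and ovariectomized libraries did not overlap, whereas control replicate 2 lay inside the treated range. The log2 fold change was -0.51 ± 0.19 for treated against ovariectomized (unadjusted p = 0.0266, edgeR adjusted p = 0.929) and -0.61 ± 0.19 for treated against control (unadjusted p = 0.0122, edgeR adjusted p = 0.485). Against controls, ovariectomized libraries differed by -0.10 ± 0.19, with a 95% interval of -0.53 to 0.34.

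Hsph1, the HSP110 that resets HSP70 by exchanging its nucleotide, followed Hspa8. It had 91.8, 84.2 and 140.02 CPM in controls, 89.8, 91.1 and 88.5 CPM in ovariectomized libraries and 58.5, 71.3 and 70.5 CPM in treated libraries. The 3 treated libraries were below all 6 others. The log2 fold change was -0.43 ± 0.18 for treated against ovariectomized (unadjusted p = 0.0429, edgeR adjusted p = 0.929) and -0.66 ± 0.18 for treated against control (unadjusted p = 0.0059, edgeR adjusted p = 0.473). DESeq2 called Hsph1 for treated against control with an adjusted p of 0.0476, the lowest of its alternatives, which reached 0.943. Across the 9 libraries Hspa8 and Hsph1 had a Pearson r of 0.94 in log2 CPM, and 0.92 over the 8 libraries without control replicate 3.

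Both treated-against-ovariectomized differences depended on single libraries for an unadjusted p under 0.05. For Hspa8 it was 0.0627 without ovariectomized replicate 2, 0.0606 without ovariectomized replicate 3, 0.0874 without treated replicate 1 and 0.0642 without treated replicate 2. For Hsph1 it was 0.0791, 0.0891 and 0.0742 without ovariectomized replicates 1, 2 and 3, and 0.134, 0.0576 and 0.0631 without treated replicates 1, 2 and 3. Against controls both kept an unadjusted p under 0.05 whichever library was left out. Without control replicate 3, the highest control for both, that difference was smaller, at -0.38 for Hspa8 (unadjusted p = 0.0385 in edgeR) and -0.40 for Hsph1 (unadjusted p = 0.00459 in edgeR).

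Dnajb1, the J-domain protein that hands substrates to HSP70 and is itself heat-inducible, was highest in controls. It had 68.0, 68.3 and 81.6 CPM in controls, 66.8, 60.4 and 61.9 CPM in ovariectomized libraries and 56.3, 60.9 and 61.9 CPM in treated libraries. In CPM all 3 controls lay above all 6 other libraries, but in FPKM they overlapped with both other groups. Ovariectomized and treated libraries overlapped. The log2 fold change was -0.20 ± 0.09 for ovariectomized against control (unadjusted p = 0.0477, edgeR adjusted p = 0.974) and -0.28 ± 0.09 for treated against control (unadjusted p = 0.012, edgeR adjusted p = 0.485). Without control replicate 3 these were -0.11 (unadjusted p = 0.186 in edgeR) and -0.19 (unadjusted p = 0.0411 in edgeR). Treated against ovariectomized differed by -0.08, with a 95% interval of -0.28 to 0.12.

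The HSP90 genes differed little between groups. Hsp90ab1, the constitutive cytosolic form, had 1199.6, 1120.35 and 1325 CPM in controls, 1209, 1189 and 1205 CPM in ovariectomized libraries and 1188, 1143 and 1145 CPM in treated libraries. The treated libraries lay just below the ovariectomized ones on the CPM scale, but overlapped with them in FPKM. The log2 fold changes of Hsp90ab1 had 95% intervals of -0.20 to 0.17 for ovariectomized against control, -0.23 to 0.13 for treated against ovariectomized and -0.25 to 0.12 for treated against control. Hsp90aa1, the inducible cytosolic form, had 267, 282 and 347 CPM in controls, 257, 287 and 259 CPM in ovariectomized libraries and 243, 268 and 245 CPM in treated libraries. The groups of Hsp90aa1 overlapped in all comparisons, and the largest difference was -0.24 ± 0.11 for treated against control (unadjusted p = 0.0504, edgeR adjusted p = 0.57). In FPKM, Hsp90ab1 was 3.95 to 5.07 times as abundant as Hsp90aa1 over the 9 libraries.

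Inside mitochondria, Hspd1 (HSP60) forms the folding chamber and Hspe1 (HSP10) its lid. Hspd1 had 168, 186 and 214 CPM in controls, 180.3, 175 and 166 CPM in ovariectomized libraries and 152, 169 and 172 CPM in treated libraries, and Hspe1 had 28.9, 30.1 and 37.8, then 29.6, 32.6 and 32.8, then 26.5, 28.6 and 29.1 CPM in the same order. Treated libraries of Hspe1 lay below the ovariectomized ones in CPM but not in FPKM, and those of Hspd1 overlapped. Treated against ovariectomized differed by -0.08 for Hspd1 (95% interval -0.30 to 0.14) and by -0.17 ± 0.11 for Hspe1 (95% interval -0.43 to 0.08). The ratio of Hspe1 to Hspd1 FPKM stayed between 1.35 and 1.64 in all 9 libraries. Hsf1, the factor itself, had 35.9, 35.2 and 40.5 CPM in controls, 35.1, 35.4 and 41.5 CPM in ovariectomized libraries and 32.5, 38.2 and 34.4 CPM in treated libraries. All groups of Hsf1 overlapped, and its intervals were -0.23 to 0.24 for ovariectomized against control and -0.32 to 0.14 for each of the other comparisons. RNA level says nothing of the activity of Hsf1, which is set mainly by its trimer formation and modification.

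Over the members as a list, none passed edgeR's adjusted threshold in any comparison, where 0% of all genes did. Of the 9 members other than Hspa1b, 9 had a lower estimate in treated than in ovariectomized libraries, against 51% of all genes. These 9 had a median log2 fold change of -0.09 (-0.05 with limma on FPKM), against -0.004 for all genes. In CPM, groups did not overlap, with treated lower, for 4 of the 9 (Hspa8, Hsph1, Hsp90ab1 and Hspe1), against 6.63% of all genes. Hsp90ab1 and Hspe1 overlapped in FPKM. In edgeR 2 of the 9 (Hspa8 and Hsph1) had an unadjusted p under 0.05, against 3.08% of all genes lower. For treated against control the estimate was lower for 8 of the 9 (7 with limma on FPKM), against 50% of all genes, with a median of -0.20, which was -0.11 with limma on FPKM or without control replicate 3. An unadjusted p under 0.05 went to 3 of the 9 tested (Hspa8, Hsph1 and Dnajb1), against 4.75% of all genes lower. In CPM 2 of the 9 did not overlap (Hsph1 and Dnajb1), against 6.78%, but Dnajb1 overlapped in FPKM. For ovariectomized against control the estimate was lower for 7 of the 9, against 51.3% of all genes, but for 5 of the 9 with limma on FPKM and 3 of the 9 without control replicate 3. There Dnajb1 alone of the 9 had an unadjusted p under 0.05, against 1.72% of all genes lower. It was also the 1 member of the 9 that did not overlap in CPM and was lower, against 3.92%, but it overlapped in FPKM. The comparisons share libraries (the treated ones in 2 of them), so their values are not separate evidence. DESeq2 called 1 of the 9 (Hsph1) for treated against control, where it called 1.11% of all genes. It called 0 of the 9 for treated against ovariectomized and for ovariectomized against control, where it called 0.292% and 0.426%.

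**Figure D2:**
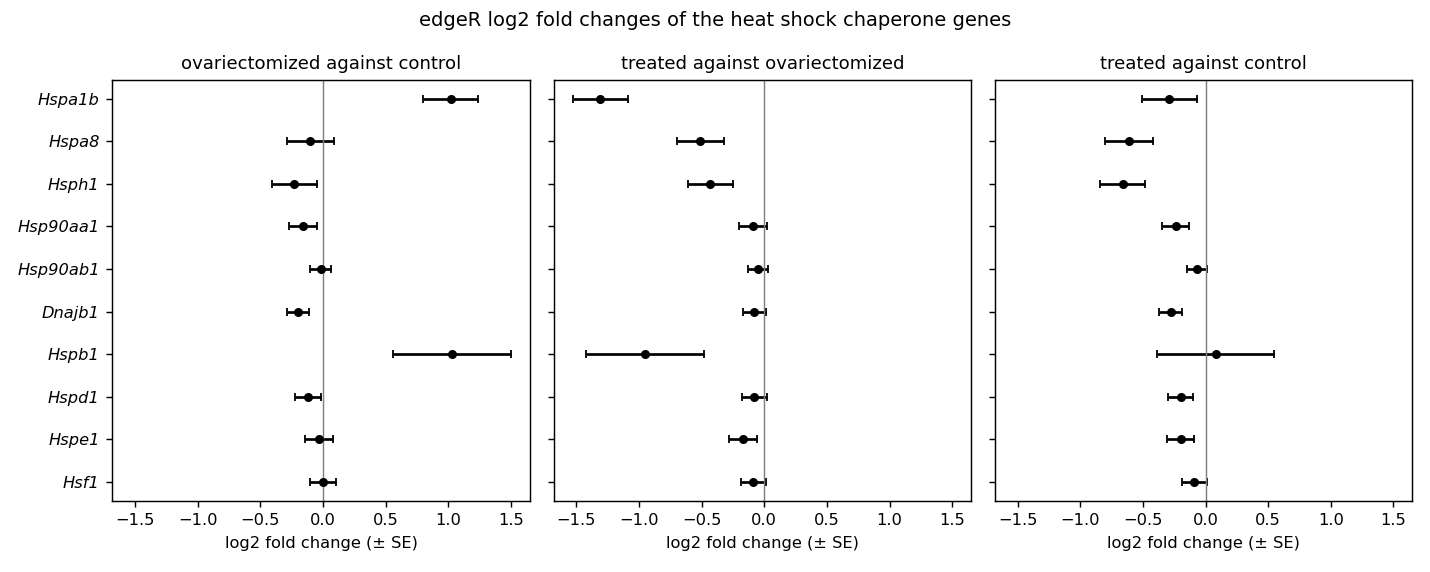
edgeR log2 fold changes with their SE for the 10 genes in the 3 comparisons, each fitted over all 9 libraries. The treated-against-ovariectomized estimates all lie below 0, from -1.31 for Hspa1b to -0.05 for Hsp90ab1, while in ovariectomized against control Hspa1b and Hspb1 lie near 1 and the others between -0.23 and 0.

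Hspb1, the small heat shock protein HSP27 that is abundant in muscle, had its own pattern across libraries. It had 4.82, 10.5 and 7.39 CPM in controls, 8.30, 13.7 and 24.6 CPM in ovariectomized libraries and 8.40, 4.60 and 11.1 CPM in treated libraries. All groups overlapped, and ovariectomized replicate 3 was the highest library. The log2 fold change was 1.03 ± 0.47 for ovariectomized against control (unadjusted p = 0.0581, edgeR adjusted p = 0.974) and -0.95 ± 0.47 for treated against ovariectomized (unadjusted p = 0.0764, edgeR adjusted p = 0.929), and without ovariectomized replicate 3 these were 0.53 and -0.45.

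The other small heat shock proteins had estimates of the same sign as Hspb1 in both of these comparisons. Of the 7 listed, 6 passed the filter and Cryaa was at 0 in every library. All 6 were higher in ovariectomized than in control libraries, with 4 at an unadjusted p under 0.05 and a median of 1.86 on the log2 scale, against 3.33% of all genes higher. All 6 were lower in treated than in ovariectomized libraries, with a median of -1.53 and 3 at that threshold, against 3.08% of all genes lower. None of the 6 was called by edgeR or DESeq2 in either comparison. Cryab (alpha B crystallin, a chaperone of muscle and lens) had 3.96, 30.9 and 16.3 CPM in controls, 22.7, 67.6 and 159 CPM in ovariectomized libraries and 26.6, 12.2 and 26.3 CPM in treated libraries, so the groups overlapped. Hspb6 (HSP20) and Hspb8 (HSP22) were also highest in ovariectomized replicate 3, at 163 and 24.1 CPM. Without that library the medians were 1.21 and -0.85, with 0 genes at an unadjusted p under 0.05 in either comparison.

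Skeletal muscle markers moved with the small heat shock proteins. All 10 muscle markers tested were higher in ovariectomized than in control libraries, with a median of 1.68. All 10 had an unadjusted p under 0.05 in edgeR, against 3.33% of all genes higher, and 5 did not overlap, against 5.02%. DESeq2 called 3 of the 10, against 0.426% of all genes, and edgeR 0. All 10 were lower in treated than in ovariectomized libraries, with a median of -1.09. Of these, 3 had an unadjusted p under 0.05 in edgeR, against 3.08% of all genes lower, and DESeq2 called 0. Their score was -1.57 to -0.10 in controls, -0.08, 0.97 and 1.74 in ovariectomized replicates 1 to 3 and -0.53 to 0.28 in treated libraries. The score of the 6 small heat shock proteins was lowest in control replicate 1, at -1.79, and highest in ovariectomized replicate 3, at 1.97, and those libraries were also the lowest and highest in muscle score. None of the muscle markers tested was at 0 in all libraries, and their part in the small heat shock values was not tested. The ovariectomized libraries, highest in Hspa1b, included the 2 highest muscle scores, and the part of muscle in the Hspa1b values was not tested either. In ovariectomized replicates 1 to 3, muscle scores of -0.08, 0.97 and 1.74 stood beside 15.1, 17.5 and 19.1 CPM of Hspa1b. Control replicates 1 to 3 had scores of -1.57, -0.68 and -0.10 beside 9.70, 9.28 and 6.57 CPM. Treated replicates 1 to 3 had scores of -0.04, -0.53 and 0.28 beside 8.70, 6.89 and 5.31 CPM.

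**Figure D3:**
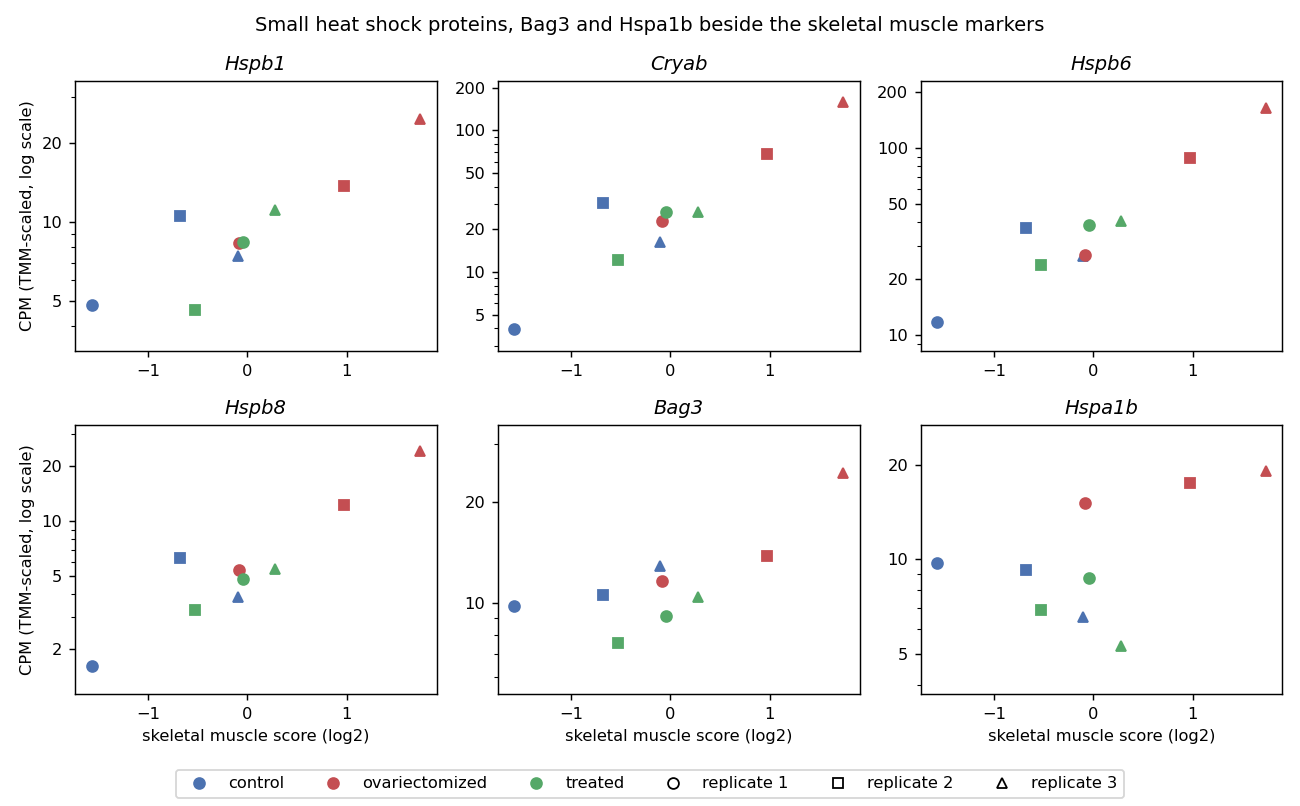
CPM (log axis) of Hspb1, Cryab, Hspb6, Hspb8, Bag3 and Hspa1b in each library against the skeletal muscle score (mean log2 CPM of 10 muscle markers relative to the 9 libraries). Points are libraries, coloured by group and shaped by replicate. Ovariectomized replicates 2 and 3, with scores of 0.97 and 1.74, are the highest for Cryab, Hspb6 and Hspb8, whereas ovariectomized replicate 1 is among the 3 highest libraries only for Hspa1b.

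The wider chaperone network was taken from lists of 90 other tested genes. In treated against ovariectomized libraries 70 of 90 were lower, against 51% of all genes, with a median of -0.08 against -0.004, and edgeR called none of them. Of these 90, 8 were lower and 1 higher at an unadjusted p under 0.05, against 3.08% and 2.12% of all genes, and DESeq2 called 0. Leaving out 1 library at a time gave 64 to 76 lower. These counts, and those of the lists below, are on the TMM scale. TMM factors were 1.011 to 1.046 in treated and 0.995 to 1.015 in ovariectomized libraries. Many differences were small, and some genes counted as lower had a higher mean FPKM with treatment. In treated against control 64 of 90 were lower with a median of -0.08, and in ovariectomized against control 54 of 90 were lower with a median of -0.02.

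Within the network, the other HSP70 and HSP110 genes were lower with treatment in 8 of 9 against ovariectomized libraries, with a median of -0.15. Hspa5 (BiP), the HSP70 of the endoplasmic reticulum, had a difference of -0.23 ± 0.12. Its treated libraries did not overlap with the ovariectomized ones in CPM, but did in FPKM. The HSP90 family and its co-chaperones were lower in 14 of 15, with a median of -0.06. Several of these 14 had a higher mean FPKM in treated than in ovariectomized libraries, so fewer were lower on that scale. Fkbp5, a co-chaperone of steroid receptors, differed by -0.18 ± 0.06 (unadjusted p = 0.0164, edgeR adjusted p = 0.929), and Stip1, which bridges HSP70 to HSP90, by -0.17 ± 0.09. Neither overlapped in CPM, but Fkbp5 did in FPKM. Among 16 other J-domain genes 12 were lower, with a median of -0.10. Dnajb5 averaged 6.52 CPM (SD 2.16) in control, 13.2 CPM (SD 7.12) in ovariectomized and 6.67 CPM (SD 0.21) in treated libraries. In FPKM its ovariectomized libraries, at 2.07 to 6.55, overlapped with the treated ones, at 2.02 to 2.2. Dnaja3, the mitochondrial J-domain protein, differed by -0.33 ± 0.08 without overlap (unadjusted p = 0.00309, edgeR adjusted p = 0.929). Its treated libraries had 41.0, 41.5 and 43.1 CPM and its ovariectomized libraries 49.4, 53.4 and 55.5 CPM. Dnajc5, a J-domain protein of secretory vesicles, had the opposite sign, at 0.28 ± 0.12 with overlap (unadjusted p = 0.0484, edgeR adjusted p = 0.929). Of the 3 heat shock factors and regulators tested beside Hsf1, Hsf2 (0.13 ± 0.17) and Hsbp1 (0.14 ± 0.14) were higher with treatment and Hsf4 was lower (-0.33 ± 0.19), none at an unadjusted p under 0.05.

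Bag3, an HSP70 exchange factor that works with small heat shock proteins in muscle, had 9.80, 10.6 and 12.9 CPM in controls, 11.6, 13.8 and 24.5 CPM in ovariectomized libraries and 9.15, 7.58 and 10.4 CPM in treated libraries. Its treated libraries lay below the ovariectomized ones, at -0.88 ± 0.28 (unadjusted p = 0.0121, edgeR adjusted p = 0.929). Such lower groups without overlap were found for 6.63% of all genes, and 3.08% were lower at an unadjusted p under 0.05 in edgeR. The highest Bag3 library was ovariectomized replicate 3, at 24.5 CPM, while ovariectomized replicate 1, at 11.6 CPM, lay inside the control range. Of 12 such exchange and adaptor genes 7 were lower with treatment, with a median of -0.04. The 8 genes of the cytosolic chaperonin were lower in 6 against ovariectomized libraries (median -0.05) and in 8 of 8 against controls (median -0.13), none called by edgeR or DESeq2. Mitochondrial protein quality control genes were lower in 9 of 10 (median -0.06) and endoplasmic reticulum stress genes in 12 of 16 (median -0.10), and among 15 other heat-inducible genes 12 were lower (median -0.17). The cold-inducible RNA-binding gene Cirbp had the opposite direction: its treated libraries, at 63.0, 61.2 and 63.7 CPM, lay above the 6 others, with 0.49 ± 0.13 against control (unadjusted p = 0.00436, edgeR adjusted p = 0.473). Higher treated groups without overlap were found for 5.75% of all genes against ovariectomized and 6.34% against control libraries, and 4.05% of all genes were higher than control at an unadjusted p under 0.05. The second such gene, Rbm3, differed by 0.04 in that comparison.

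**Figure D4:**
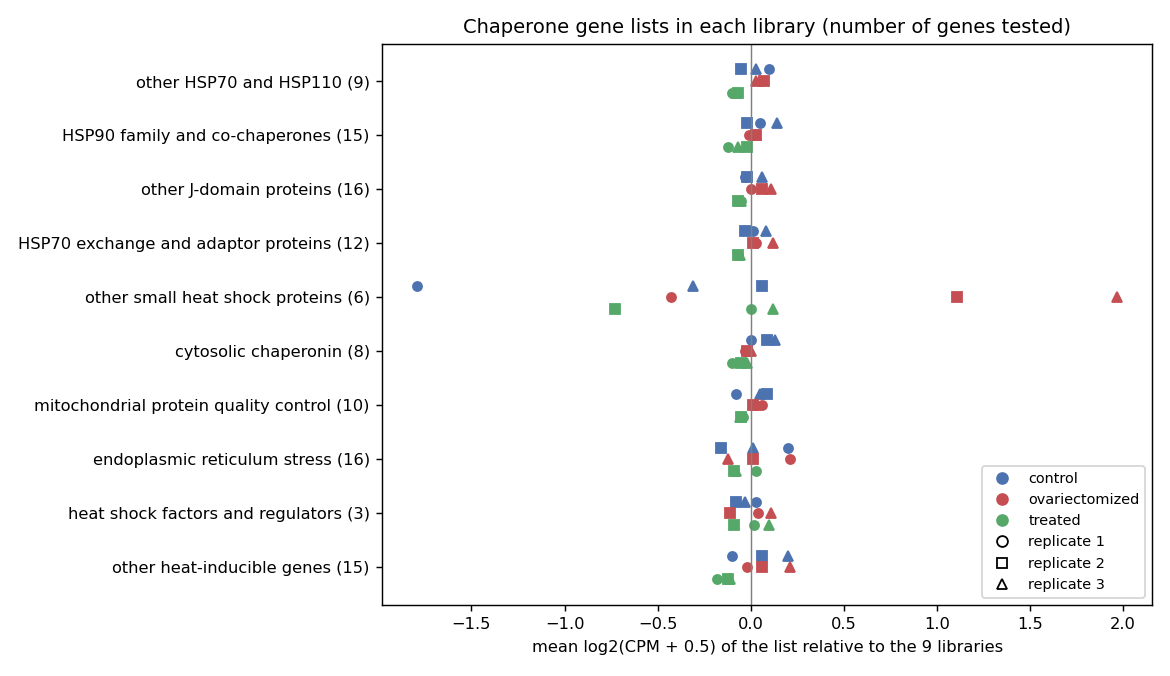
Mean log2(CPM + 0.5) of each chaperone list in each library, relative to the mean of the 9 libraries, with the number of genes tested in brackets. Points are libraries, coloured by group and shaped by replicate. The treated libraries lie between -0.10 and -0.07 for the other HSP70 and HSP110 genes, below the ovariectomized range of 0.03 to 0.07, and the small heat shock proteins alone spread from -1.79 to 1.97.

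Other gene groups differed between the same libraries. The immediate early genes are switched on within minutes of a stimulus, and many of them encode transcription factors. They were lower in treated than in ovariectomized libraries for 17 of 17 tested, against 51% of all genes. Their median was -0.23. At an unadjusted p under 0.05 there were 7, against 3.08% of all genes lower. DESeq2 called 4 of them (Fos, Fosb, Egr1 and Atf3), against 0.292% of all genes, and edgeR 0. Atf3 averaged 0.976 FPKM in control, 1.92 FPKM in ovariectomized and 0.694 FPKM in treated libraries. It passed the filter only through the ovariectomized libraries, so its lower level with treatment is partly set by the filter. Erythroid markers were lower in treated than in ovariectomized libraries for 9 of 9, with a median of -0.31. Of these, 3 had an unadjusted p under 0.05 in edgeR, against 3.08% of all genes lower. They were also lower in treated than in control libraries for 9 of 9, with a median of -0.45. There 8 had an unadjusted p under 0.05 in edgeR, against 4.75% of all genes lower. DESeq2 called 1 of them against control, where it called 1.11% of all genes, and edgeR 0. Their score was -0.39 to -0.08 in treated, -0.03 to 0.14 in ovariectomized and -0.08 to 0.56 in control libraries. Neutrophil markers were higher in treated than in ovariectomized libraries for 9 of 9, with a median of 0.30. Adipocyte markers were higher in ovariectomized than in control libraries for 9 of 9, with a median of 1.28 and 6 at an unadjusted p under 0.05, against 3.33% of all genes higher. DESeq2 called 2 of them (Lpl and Retn), against 0.426% of all genes. Lep, 1 of the 9, averaged 0.779 FPKM in control, 1.61 FPKM in ovariectomized and 1 FPKM in treated libraries. Like Atf3 it passed the filter only through the ovariectomized libraries, so its higher level there is partly set by the filter. The adipocyte score was -1.89 to -0.27 in control, 0.24 to 0.69 in ovariectomized and -0.08 to 0.71 in treated libraries. Cartilage markers were lower in ovariectomized than in control libraries for 7 of 7, with a median of -1.85 and 6 at an unadjusted p under 0.05, against 1.72% of all genes lower, and DESeq2 called 0. Their score was 0.15 to 1.82 in control, -0.91 to -0.29 in ovariectomized and -1.05 to 0.92 in treated libraries. Osteoblast and osteocyte scores were 0.24 to 0.74, -0.65 to 0.41 and -0.52 to 0.08 in the same order. Control and ovariectomized libraries were thus apart in adipocyte and cartilage scores, as they were in Hspa1b. They were also narrowly apart in the skeletal muscle score, at -1.57 to -0.10 in control and -0.08 to 1.74 in ovariectomized libraries. The part of these groups in the chaperone values was not tested.

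Among themselves the members other than Hspa1b and Hspb1 varied together, but largely through 1 library. Over the 28 pairs of the 8 genes, Pearson r of log2 CPM over the 9 libraries had a median of 0.74, from 0.47 to 0.94, and after each group's mean was subtracted the median was 0.69. Without control replicate 3 the medians were 0.44 and 0.24 over 8 libraries, and 11 of the 28 pairs had a negative r of the deviations. Hspa1b did not share this pattern over the 9 libraries, where its r with the 9 other members had a median of 0.13, from -0.23 to 0.58. Without control replicate 3 that median was 0.57, from 0.09 to 0.71. The deviations of Hspa1b from the group means had a negative r with 8 of the 9 other members, at -0.88 for both Dnajb1 and Hspd1. Without control replicate 3 the r of the deviations was negative with 5 of 9, and still -0.84 for Dnajb1 and -0.80 for Hspd1. Libraries share their depth and RNA, so these values are descriptions.

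**Figure D5:**
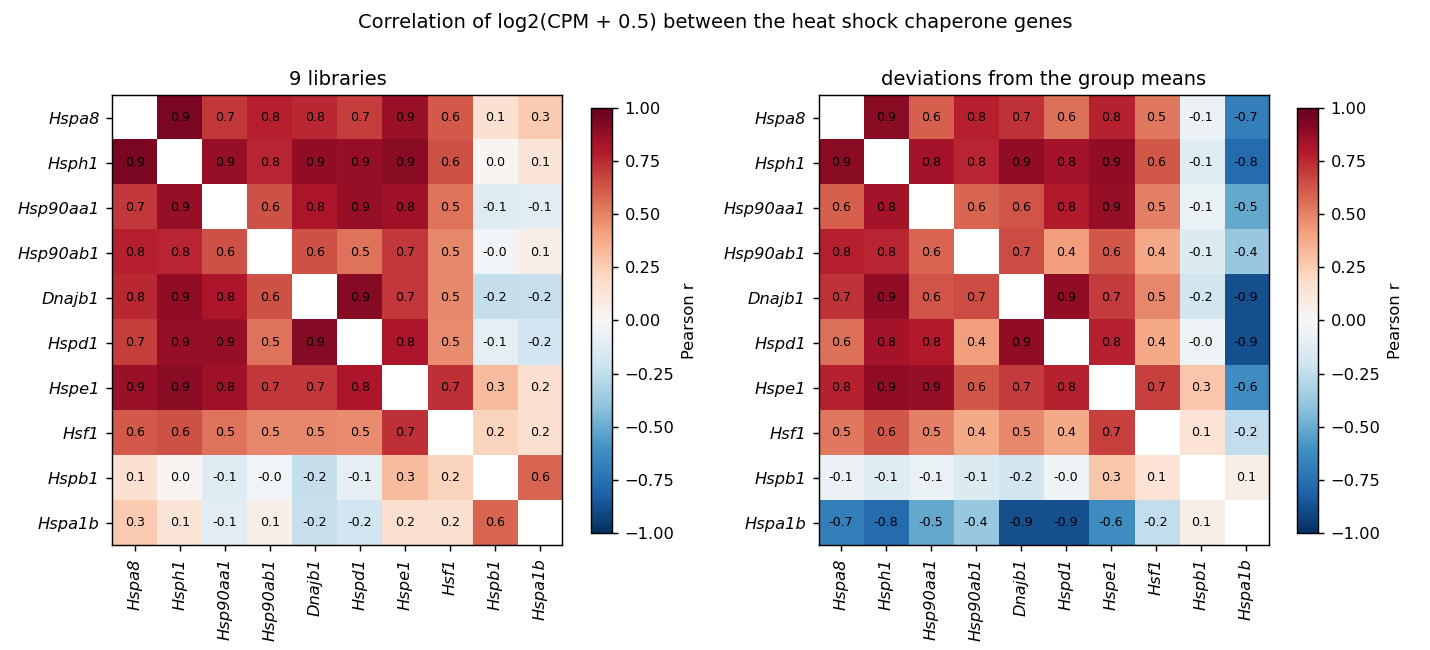
Pearson r of log2(CPM + 0.5) between pairs of the 10 genes over the 9 libraries (left) and after subtracting group means (right), from -1 (blue) to 1 (red). The 8 members other than Hspb1 and Hspa1b form a red block, and the Hspa1b row turns blue on the right, down to -0.88 for Dnajb1 and Hspd1.

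The tested genes whose level over the 9 libraries was most like that of Hspa1b were ranked by Pearson r of log2 CPM. The genes named here hold ranks 1, 3, 4, 5 and 7, since ranks 2 and 6 were left out because their symbols are placeholders. Ezh1, a histone methyltransferase of Polycomb complexes, had an r of 0.966. The others were Mfsd4b at 0.917, the skeletal muscle myosin light chain kinase Mylk2 at 0.907, the stress-responsive transcription factor Atf3 at 0.904 and Coa4 at 0.90. Atf3 had 0.783, 1.05 and 1.09 FPKM in controls, 1.94, 1.56 and 2.27 FPKM in ovariectomized libraries and 0.946, 0.63 and 0.504 FPKM in treated libraries. Ezh1 had 24.4, 24.1 and 25.3 FPKM, then 27.8, 28.4 and 30.3 FPKM, then 25.8, 26.1 and 25.5 FPKM in the same order. In both genes, as in Hspa1b, all 3 ovariectomized libraries lay above all 6 others. Genes ranked in this way were picked for their likeness out of 13886, so their shared pattern carries no test. Among the members over the 9 libraries, Hspb1 was the most like Hspa1b, with an r of 0.58, and Dnajb1 the least, with -0.23. Part of that order rested on control replicate 3. Without that library r was 0.71 for Hspe1, 0.68 for Hspa8 and Hsp90ab1, 0.66 for Hsph1, 0.57 for Hspb1 and 0.09 for Dnajb1.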

How the data were processed

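Poly(A) RNA from rat femora was sequenced in 9 libraries, 3 per group, grouped by their titles. Per the file headers, the deposited table gives each gene a count and an FPKM value in every library. The authors used fastp, HISAT2 and StringTie, per the submitters' processing notes; no label or header names versions, the genome build or how the counts were made. Deposited counts were treated as unscaled read counts, and the deposited FPKM values, scaled by the authors for length and depth, hold 0.0001 where the count is 0. At 54992823 to 66531156 counts per library, replicates differed by more than sampling (lowest chi-square per degree of freedom 79.6 within groups).

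Counts were fitted with edgeR 4.0.16 (R 4.3.3): TMM factors, a filter at a mean of 1 FPKM, 1 quasi-likelihood fit over the 9 libraries, 3 contrasts, and Benjamini-Hochberg adjustment over 13886 genes (threshold 0.05). Intervals are 95% intervals of that fit. CPM comparisons use TMM scaling, and logs add 0.5. FPKM was used to order genes by level. Alternatives were DESeq2 1.42.0, median-of-ratios size factors, limma 3.58.1 on log2(FPKM + 1) and log2(FPKM + 0.1), no filter or a filter at 5 FPKM, only the 2 groups compared, a replicate block, and each library left out. List counts and likeness without 1 library were added after seeing the data. The fit was tested on simulated data. Figures used Python 3.11.15 and matplotlib 3.10.9.

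The members and lists were chosen with earlier results of these data known. Named genes were the 10 members, up to 3 tested genes per pathway list with the smallest unadjusted p for treated against ovariectomized, and the 5 genes most like Hspa1b once placeholder symbols were skipped. Egr1, Lpl, Retn, Lep, Cryaa and Hspa1l were named after their values were seen. Lists are described by counts and medians, without a set test. Of 198 list symbols, 6 without a row were not analysed here.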

Additional observations from a re-analysis of the deposited data

How the results depend on the processing

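Under the alternatives, 47 values of the median log2 fold change of all 10 members, Hspa1b included, stayed within the replicate spread and 1 did not. Without control replicate 3 it was 0.06 for ovariectomized against control, in a range of -0.112 to 0.06 over the left-out libraries. The number of genes called was 0 in edgeR in each comparison. DESeq2 called 59, 38 and 153, and a fit of only the 2 groups compared called 2, 1 and 1. The order here is ovariectomized against control, then treated against ovariectomized, then treated against control. Leaving out 1 library gave 0 to 4, 0 to 2 and 0 to 3. Estimates near 0 changed sign. For ovariectomized against control these were Hsf1 without a filter (-0.004), Hsp90ab1 with limma (0.032 at both pseudocounts) and Hspe1 with limma (0.026 and 0.027). Over the left-out libraries Hspa8 ranged from -0.288 to 0.133, Hsph1 from -0.374 to 0.03, Hsp90ab1 from -0.08 to 0.05, Hspe1 from -0.104 to 0.102 and Hsf1 from -0.079 to 0.07. For treated against control Hsp90ab1 was 0.021 with limma at both pseudocounts, and Hspb1 ranged from -0.223 to 0.397. The cause was not tested. For treated against ovariectomized no member changed sign under any alternative run. The filter at 5 FPKM leaves out Hspa1b and gave no median of 10. Replicate numbers do not pair the libraries: same-numbered libraries had deviations correlated from -0.126 to 0.24, over 0.1 in 3 of 9 pairs, and 2 of 9 libraries correlated best with their own number. With the replicate block edgeR called 0 genes in each comparison, and the members' median was -0.043, -0.132 and -0.221. With 3 libraries per group only large or very even differences can pass an adjustment over 13886 genes, so a missed threshold does not show that levels were equal.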

Other observations

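Heat shock genes below the filter were outside every comparison. Hspa1l, an HSP70 known from the testis and a neighbour of Hspa1b in the genome, had 18, 62 and 31 counts in controls, 59, 58 and 259 counts in ovariectomized libraries and 43, 47 and 54 counts in treated libraries. Its highest library was ovariectomized replicate 3, the one that was also highest for Hspa1b and Hspb1. Cryaa, the lens crystallin, had 0 counts in all libraries.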
